A study of Mus musculus with 54 samples.

Results

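The genes of the proteasome, the particle that degrades ubiquitin-tagged proteins, were described in early proximal tubules of mouse kidney. Members were the rows of the deposited expression table whose gene name starts with Psma to Psmg and a number. Names marked -ps were left out, as were the immunoproteasome genes Psmb8, Psmb9 and Psmb10 and the PA28 activator genes Psme1 and Psme2. Of 55487 rows, 45 were members. The name pattern alone took 54 rows, of which 4 were -ps names and 5 were the immunoproteasome and PA28 genes.

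Psmc3ip and Psme2b have names that fit but no known role in the particle. Psmc3ip encodes a partner of PSMC3 that is known from meiotic recombination, and Psme2b is a retrocopy of Psme2. The other 43 have a role in the particle, its assembly or its control.

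Male DBA mice aged 14 weeks were the source, and SGLT2-positive segments were cut from their kidneys by laser capture, 70 to 80 tubules per sample. Diabetic mice carried 1 Akita allele of insulin 2 (Ins2 Akita/+), and their non-diabetic littermates had both normal alleles (Ins2+/+). The Akita allele encodes a misfolding insulin that damages the beta cells of the pancreas, so it models insulin-deficient diabetes. Mice of both kinds were Sglt1 knockout (Sglt1-/-) or Sglt1 wild type (Sglt1+/+). SGLT1 and SGLT2 are the sodium-glucose cotransporters that take glucose back from the tubule fluid, and dapagliflozin blocks SGLT2. Treatment ran for 2 weeks with dapagliflozin in the diet at 10 mg/kg, with semaglutide, a GLP-1 receptor agonist, injected under the skin at 3 nmol/kg per day, or with vehicle.

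Diabetic tubules of wild-type mice on semaglutide gave 5 libraries. Diabetic tubules on dapagliflozin gave 6 libraries of knockout and 5 of wild-type mice. Diabetic vehicle tubules gave 6 of each genotype. Non-diabetic tubules on dapagliflozin gave 6 libraries of knockout and 4 of wild-type mice, and non-diabetic vehicle tubules gave 5 of each. The labels do not say how many animals stood behind a sample or whether the knockout was limited to certain cells. P-values therefore measure the spread between these samples.

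The proteasome has a barrel, the 20S core, and caps that select what enters it. The barrel is built from alpha rings, which form the gate, and beta rings, of which PSMB5, PSMB6 and PSMB7 carry the active sites. The 19S cap has a ring of ATPases that unfold substrates, base subunits that bind ubiquitin and its carriers, and a lid whose subunit PSMD14 cuts the ubiquitin chain off. Proximal tubule cells take up and break down large amounts of filtered protein in lysosomes, while the proteasome handles proteins of the cell's own cytosol and nucleus.

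The libraries had the marks of early proximal tubule. Slc5a2, which encodes SGLT2, stood at 82.5 to 275 TPM (a transcript abundance corrected for length and scaled to the same sum in every library) in all 48 libraries. Slc5a1, which encodes SGLT1, was at 0 to 0.123 TPM in 23 knockout libraries, against 0.814 to 4.29 TPM in 25 wild-type libraries. Between 8465 and 11419 genes were detected per library, and 4 libraries had fewer than 9000. All 4 were diabetic vehicle libraries, 2 of each genotype. Nuclear protein-coding genes took 5.98% to 14.1% of a library's TPM, and the single row with the highest mean TPM took 36.8% to 64.4%. Lars2 was left out of the protein-coding sum, here and in the shares and rescalings below. That share of protein-coding RNA averaged 10.4% ± 1.83 (SD, n = 11) in diabetic dapagliflozin libraries, 8.69% ± 2.25 (SD, n = 12) in diabetic vehicle libraries and 10.4% ± 1.82 (SD, n = 10) in non-diabetic vehicle libraries.

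Early tubules carried nearly the whole family of proteasome genes at moderate levels. Of the 45 members, 40 were above 0 in every library and 32 were at 1 TPM or more in every library. The filter of the tests, TPM of at least 1 in at least 5 libraries, kept 43 members and 12742 genes in all. Both members that failed it encode subunits of special proteasomes. Psma8, the alpha subunit of the testis proteasome, was at 0 in 40 libraries and averaged 0.0581 TPM, and Psmb11, the beta subunit of the thymus proteasome, was at 0 in 47 libraries and averaged 0.00701 TPM.

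Psma4, an alpha ring subunit, had the highest mean of all members, 25.3 ± 6.07 TPM (SD, n = 48). Psmd4, the ubiquitin receptor of the base, followed at 22.3 ± 5.60 TPM and Psma3, another alpha subunit, at 18.2 ± 5.55 TPM (SD, n = 48 each). Psma4 was the highest of the 31 subunits of the 26S particle (core plus cap) in 31 libraries, and Psmd4 was in 11. Psma2, also in the alpha ring, was the lowest of the 31 in 33 libraries and in all 9 group means, at 2.71 TPM on average.

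The subunits that share a ring in equal numbers thus differed in transcript level, by 9.32-fold from Psma2 to Psma4. The 7 alpha genes had a median of 8.67 TPM and the 7 beta genes 8.24 TPM, with Psmb6 the highest beta gene at 15.4 TPM and Psmb2 the lowest at 3.92 TPM. The 6 ATPase genes had a median of 14.7 TPM, with Psmc6 at 17.4 TPM and Psmc2 at 7.32 TPM at their ends. The 3 base genes other than the ATPases had a median of 11.8 TPM and the 8 lid genes 8.15 TPM.

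Genes for the assembly chaperones, which build the particle but do not stay in it, were lower, from 1.32 TPM for Psmg3 to 2.74 TPM for Psmd9. Among the activators and the regulator, Psme4 (PA200, a nuclear cap) stood at 14.5 ± 4.69 TPM, Psme3 (PA28 gamma, another nuclear cap) at 7.42 TPM and Psmf1 (PI31, described as an inhibitor of the core in vitro) at 2.54 TPM. Apart from the pair that failed the filter, Psme2b was the lowest member at 0.638 TPM, followed by Psmc3ip at 0.872 TPM.

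**Figure D1:**
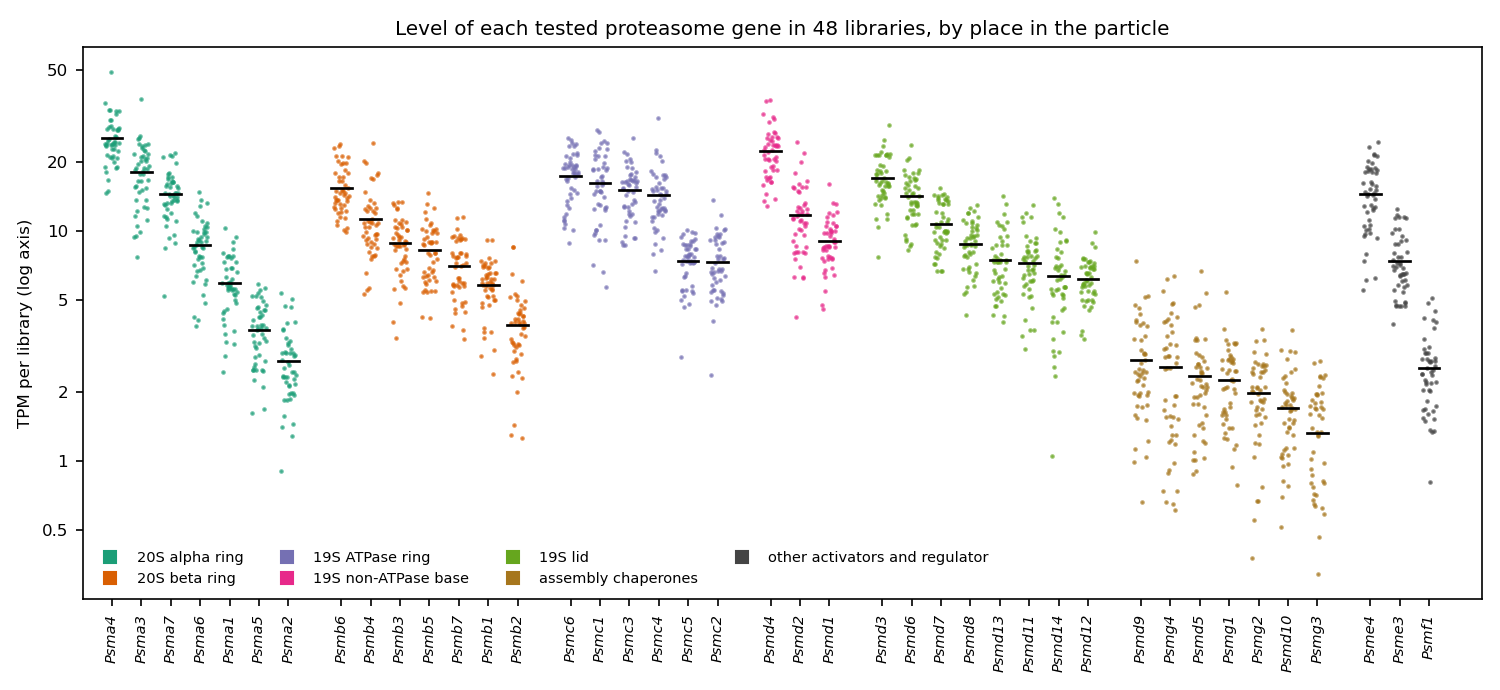
TPM of the 41 tested genes with a proteasome role (log axis), 1 dot per library and a black line at the mean over 48 libraries, grouped by role; 3 values of Psmg3 at 0 are not drawn. Psma4 at 25.3 TPM and Psmd4 at 22.3 TPM have the highest means, and the assembly chaperones lie at the low end, at 1.32 to 2.74 TPM.

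Some of these levels share sequence with other rows. Psma3 has a processed pseudogene, Gm13835, that is 100% identical to it over 685 bases and stood at 5.11 TPM. Psma4 has Gm6542, 96.8% identical over 783 bases, at 4.27 TPM. Psme2b is 99.37% identical over 794 bases to Psme2, which stood at 5.20 TPM, so its value is uncertain. Reads of such pairs can be split either way by the counting. Psmd9 overlaps Hpd, a tyrosine-breakdown gene at 13.1 TPM on the opposite strand, and Psmd13 overlaps Sirt3, at 16.1 TPM, likewise. The library kit keeps the strand, but the labels do not say whether the counting used it.

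Promoters are shown for 4 genes on which the results below turn, Psmd14, Psma3 and Psme4 as members near the ends of the diabetes and dapagliflozin contrasts and Psmb5 as the chymotrypsin-like catalytic subunit. The sequences are from RefSeq on GRCm38.p6 and run from 250 bases before the start site to 20 bases after it, in the direction of the gene. Capitals mark matches to CCAAT, the letters bound by the factor NF-Y, or to TGACNNNGC, the core of the antioxidant-type element bound by NRF1 (the product of Nfe2l1, known to induce proteasome genes) and NRF2. Both strands were searched, so a match on the other strand appears as its reverse complement (ATTGG for CCAAT).
Psmd14, chr2:61711444-61711713, plus strand: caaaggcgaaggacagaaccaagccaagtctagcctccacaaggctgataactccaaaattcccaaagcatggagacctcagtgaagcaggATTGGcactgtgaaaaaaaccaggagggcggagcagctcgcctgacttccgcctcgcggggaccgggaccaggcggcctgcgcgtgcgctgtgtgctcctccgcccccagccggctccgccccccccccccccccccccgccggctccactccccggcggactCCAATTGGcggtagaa
Psma3, chr12:70974373-70974642, plus strand: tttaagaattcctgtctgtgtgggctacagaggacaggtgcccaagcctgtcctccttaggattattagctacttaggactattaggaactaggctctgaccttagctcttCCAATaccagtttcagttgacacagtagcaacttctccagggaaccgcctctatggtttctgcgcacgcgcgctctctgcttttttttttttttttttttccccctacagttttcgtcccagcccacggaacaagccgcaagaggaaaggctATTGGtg
Psme4, chr11:30771525-30771794, plus strand: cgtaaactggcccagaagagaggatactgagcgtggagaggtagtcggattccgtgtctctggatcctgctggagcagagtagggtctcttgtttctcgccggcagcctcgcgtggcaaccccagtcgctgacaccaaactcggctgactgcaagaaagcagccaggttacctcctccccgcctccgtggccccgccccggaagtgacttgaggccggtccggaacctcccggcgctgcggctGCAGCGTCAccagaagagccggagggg
Psmb5, chr14:54617976-54618245, minus strand: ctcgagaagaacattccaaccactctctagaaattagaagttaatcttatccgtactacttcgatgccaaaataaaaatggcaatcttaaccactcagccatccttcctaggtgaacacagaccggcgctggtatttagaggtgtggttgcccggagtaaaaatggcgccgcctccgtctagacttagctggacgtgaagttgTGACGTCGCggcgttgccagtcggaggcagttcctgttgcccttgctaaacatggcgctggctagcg

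Psmb5 holds TGACNNNGC 47 bases before its start and Psme4 holds it 7 bases before, on the other strand. Psmd14 and Psma3 hold CCAAT only. In the whole RefSeq window, which ends 50 bases after the start, 39 promoters of 37 members were in the RefSeq table. TGACNNNGC was in 6 of the 39, or 15.4%, against 12.4% of 32851 promoters of all genes. CCAAT was in 14 of the 39, or 35.9%, against 37.4% of all. None of the promoters printed above holds both motifs. A match is a run of letters, not a measured binding site.

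The summed level of the 43 genes with a role spread widely within groups. The sum averaged 366 ± 52.3 TPM in diabetic wild-type tubules on semaglutide (SD, n = 5). On dapagliflozin, diabetic knockout tubules averaged 406 ± 84.99 TPM (SD, n = 6) and diabetic wild-type tubules 418 ± 43.99 TPM (SD, n = 5). On vehicle, diabetic knockout tubules averaged 337 ± 97.4 TPM and diabetic wild-type tubules 330 ± 83.2 TPM (SD, n = 6 each).

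Among non-diabetic tubules, those on dapagliflozin averaged 410 ± 39.5 TPM in knockouts (SD, n = 6) and 337 ± 60.9 TPM in wild types (SD, n = 4). Those on vehicle averaged 397 ± 72.7 TPM in knockouts and 401 ± 43.5 TPM in wild types (SD, n = 5 each). Over all 48 libraries the sum ran from 230 to 536 TPM. The ranges of every pair of groups that was compared overlapped.

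Set against the nuclear protein-coding RNA of the same library, the family was steadier. It made up 0.388% ± 0.029 of that RNA (SD, n = 48), with group means from 0.369% in non-diabetic knockout vehicle tubules to 0.403% in non-diabetic wild-type vehicle tubules. Diabetic dapagliflozin libraries averaged 0.396% ± 0.026 (SD, n = 11), diabetic vehicle libraries 0.385% ± 0.028 (SD, n = 12) and non-diabetic vehicle libraries 0.386% ± 0.034 (SD, n = 10).

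**Figure D2:**
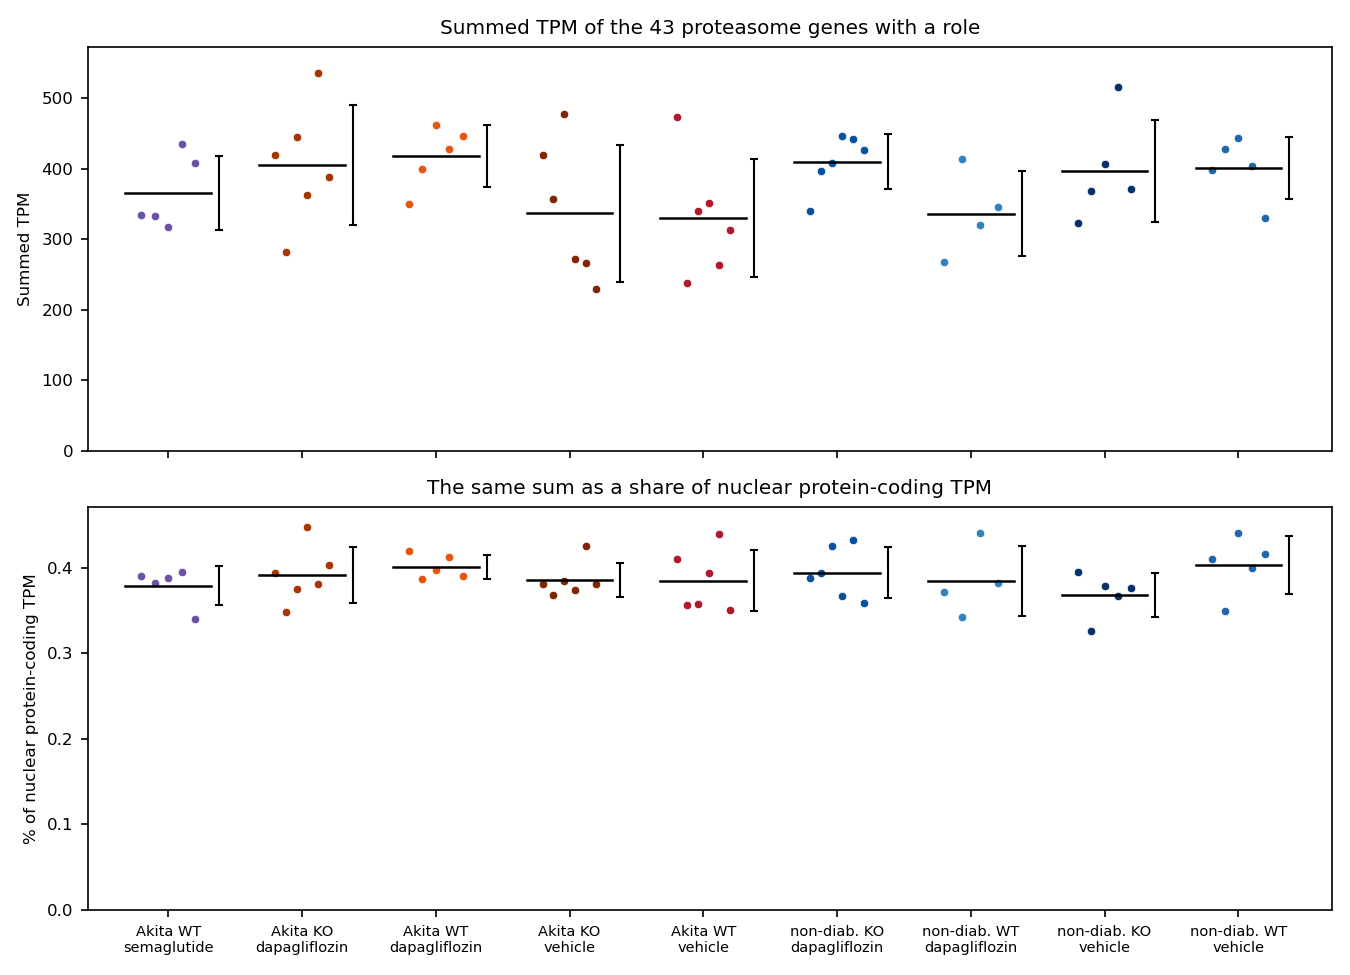
Summed TPM of the 43 genes with a proteasome role (top) and that sum as a percentage of nuclear protein-coding TPM (bottom) in the 9 groups, with diabetic mice labelled Akita; dots are libraries, lines are means and bars are SD. The diabetic vehicle groups have the lowest mean sums with the non-diabetic wild-type dapagliflozin group, at 337, 330 and 337 TPM, while the percentages of all groups lie between 0.369 and 0.403 on average.

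The balance of cap and core also stayed close. The 19S genes summed to 1.43 ± 0.150 times the 20S genes (SD, n = 48). That ratio was 1.37 ± 0.161 in diabetic dapagliflozin libraries (n = 11), 1.41 ± 0.154 in diabetic vehicle libraries (n = 12) and 1.46 ± 0.172 in non-diabetic vehicle libraries (SD, n = 10). Because whole tubules were sampled, fewer cells of a type and less RNA per cell cannot be told apart in any of these levels.

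The effect of diabetes was read from diabetic against non-diabetic vehicle tubules. Averaged over genotypes, 40 of the 43 tested members were lower and 3 higher in diabetic tubules, where 84.3% of all genes tested were lower, but 22 and 21 of the 43 were higher once libraries were rescaled by median ratios or to nuclear protein-coding RNA. The median log2 change of the members was -0.23, against -0.20 over all 12742 genes tested. Every log2 change is of TPM + 1. No member passed an adjusted p of 0.05 in limma (Benjamini-Hochberg over all genes tested), where 0.557% of all genes did. At an unadjusted p under 0.05 there were 8 members, 18.6%, against 18.5% of all genes. The median 95% interval of a member spanned 0.33 log2 units to each side. With each library removed in turn, 0 to 4 members were called, with 4 without diabetic knockout vehicle sample 3, 2 without diabetic wild-type vehicle sample 1 or non-diabetic knockout vehicle sample 1, and 1 without diabetic knockout vehicle sample 1. The shares of all genes called in those fits are not given here, so these counts cannot be set against them.

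The members at the low end of the diabetes contrast have different roles. Psmd14, the lid deubiquitinase, had a log2 change of -0.65 ± 0.22 (SE; adjusted p = 0.123 by limma), with a mean of 4.48 TPM in diabetic libraries, against 6.91 TPM in non-diabetic libraries. Psme4 had -0.62 ± 0.18 (adjusted p = 0.0778), with 10.7 TPM in diabetic against 16.5 TPM in non-diabetic libraries. Psma3 had -0.50 ± 0.17 (adjusted p = 0.123), with 13.7 TPM in diabetic against 19.3 TPM in non-diabetic libraries. These changes were smaller under the rescalings by median ratios and to protein-coding RNA, at -0.42 and -0.52 for Psmd14, -0.36 and -0.39 for Psme4 and -0.23 and -0.25 for Psma3. In TPM as deposited, of the 12 diabetic libraries, 11 were below the non-diabetic median for Psmd14, 10 for Psme4 and 11 for Psma3. At the other end were Psmg4, a core assembly chaperone, at 0.05 ± 0.26, Psme3 at 0.00 ± 0.17 and Psmb2 at 0.00 on the log2 scale.

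Catalytic subunits gave no detectable difference. Psmb5 averaged 7.43 TPM in diabetic libraries, against 9.09 TPM in non-diabetic libraries (log2 change -0.29 ± 0.16, adjusted p = 0.322 by limma). Psmb7 averaged 6.29 TPM in diabetic libraries, against 7.74 TPM in non-diabetic libraries (-0.26 ± 0.16, adjusted p = 0.335). Under the rescalings by median ratios and to protein-coding RNA, Psmb5 stood at -0.037 and -0.039 and Psmb7 at -0.016 and -0.015. Psmb6 averaged 14.9 TPM in diabetic libraries, against 14.96 TPM in non-diabetic libraries (-0.02 ± 0.15, adjusted p = 0.951), and its sign turned under both rescalings. Psmf1 had -0.04 ± 0.17 (adjusted p = 0.899), also with a sign that turned.

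By role, the median log2 changes were -0.29 for the alpha ring, -0.20 for the beta ring, -0.28 for the ATPases, -0.30 for the base, -0.25 for the lid, -0.16 for the assembly chaperones and -0.04 for the activators and regulator. The median of all genes was -0.20. Under median ratios the beta ring stood at 0.057, the assembly chaperones at 0.0090 and the activators and regulator at 0.16, so their sign turned, and the other roles lay between -0.033 and -0.0015.

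Psmd14 values show how the libraries spread. In diabetic wild-type vehicle libraries Psmd14 was at 5.62, 1.05, 4.02, 5.37, 5.28 and 3.40 TPM, against 9.88, 6.17, 6.46, 8.15 and 7.11 TPM in non-diabetic wild-type vehicle libraries. These groups did not overlap, which 0.714% of all genes tested also showed, and Psmd14 was the 1 member that did so (log2 change -0.82 ± 0.30, adjusted p = 0.472 by limma). Rescaled to protein-coding RNA, the same groups did overlap for Psmd14, at 15.8 to 88.2 in diabetic and 50.3 to 101.8 in non-diabetic libraries. In knockouts the groups overlapped for Psmd14 and every other member, while 0.698% of all genes did not overlap. Diabetic knockout vehicle libraries were at 3.01, 4.25, 13.9, 2.57, 2.86 and 2.34 TPM, 1 of them far above the rest, against 5.31, 4.56, 6.31, 11.5 and 3.64 TPM in non-diabetic knockout vehicle libraries (-0.47 ± 0.30, adjusted p = 0.451).

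Within genotypes, 40 of 43 members were lower with diabetes in wild types, where 74.2% of all genes were, and 36 of 43 in knockouts, where 81.4% of all genes were, but 13 and 16 of 43 in knockouts under the rescalings by median ratios and to protein-coding RNA. The members' median log2 change was -0.26 in wild types (all genes -0.15) and -0.16 in knockouts (all genes -0.24), but 0.11 in knockouts under both rescalings. The wild-type count and median are for TPM as deposited. Wild-type counts under the rescalings are not given here, so the counts cannot show whether the genotypes differ on those scales. In wild types limma called 0 members, where 0.0235% of all genes passed, and 9 members had an unadjusted p under 0.05, where 7.6% of all genes did. In knockouts it called 0 members, where 0.0% of all genes passed, and 6 members had an unadjusted p under 0.05, where 14.4% of all genes did. Psmd5, an ATPase assembly chaperone, had the lowest p in wild types (-0.73 ± 0.26, adjusted p = 0.472), and Psmd10 (gankyrin), another, in knockouts (-0.58 ± 0.20, adjusted p = 0.280, but -0.35 under median ratios).

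Dapagliflozin in diabetic mice was the contrast with the members nearest to the threshold. It shares the diabetic vehicle libraries with the diabetes contrast, so the contrasts are not independent. Averaged over genotypes, 38 of 43 members were higher and 5 lower on dapagliflozin, where 80.8% of all genes were higher, but 28 and 24 were higher after the rescalings by median ratios and to nuclear protein-coding RNA. Their median log2 change was 0.27, against 0.17 over all genes tested. Limma called 0 members, where 0.816% of all genes passed. At an unadjusted p under 0.05 there were 15 members, 34.9%, against 17.5% of all genes, and 4 under each rescaling. The share of all genes under each rescaling is not given here, so these 4 cannot be set against it. Removing each library in turn, limma called 0 to 6 members. The count was 6 without diabetic wild-type vehicle sample 1, 5 without diabetic knockout vehicle sample 3, 4 without diabetic knockout dapagliflozin sample 2 and 3 without diabetic knockout vehicle sample 1. It was 2 without diabetic wild-type vehicle sample 3, diabetic wild-type dapagliflozin sample 1 or diabetic knockout dapagliflozin sample 4, and 1 without diabetic knockout vehicle sample 2. With a filter of TPM of at least 5 in at least 5 libraries, 3 were called. For these altered fits the shares of all genes called are not given here, so the counts cannot be read as particular to the members.

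Psma3 had the smallest adjusted p of the 602 tests of members, 0.0549 by limma. Its log2 change was 0.61 ± 0.16 (SE), with a mean of 21.6 TPM in diabetic dapagliflozin libraries, against 13.7 TPM in diabetic vehicle libraries. Psmd14 had the largest change, 0.77 ± 0.21 (adjusted p = 0.0560), with 7.59 TPM on dapagliflozin against 4.48 TPM on vehicle. Psme4 had 0.58 ± 0.18 (adjusted p = 0.084), with 16.0 TPM on dapagliflozin against 10.7 TPM on vehicle. Under the rescalings by median ratios and to protein-coding RNA, Psma3 was at 0.36 in both (adjusted p = 0.195 and 0.233 by limma), Psmd14 at 0.57 and 0.66 and Psme4 at 0.34 in both. In TPM as deposited, all 11 treated libraries lay above the vehicle median for Psmd14 and Psme4, and 10 of 11 did for Psma3. Rescaled to protein-coding RNA this still held for Psmd14. For Psme4 the lowest treated library, at 117.6, was then below the vehicle median of 122.0.

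Psmd1, a base scaffold, with 10.1 TPM on dapagliflozin and 7.05 TPM on vehicle, and Psma4, with 29.9 TPM on dapagliflozin and 22.0 TPM on vehicle, were also near the threshold. Psmd1 had a log2 change of 0.47 ± 0.13 (adjusted p = 0.0560 by limma) and Psma4 of 0.44 ± 0.13 (adjusted p = 0.0763). Under the rescalings Psmd1 was at 0.23 in both and Psma4 at 0.18 and 0.17. They were singled out after their values were seen. Lowest were Psme2b at -0.20 ± 0.18, Psmb2 at -0.03 and Psmd9 at -0.03 on the log2 scale, which stood further below 0 under both rescalings, at -0.24 and -0.62 for Psme2b, -0.21 and -0.28 for Psmb2 and -0.21 and -0.28 for Psmd9.

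The catalytic genes had smaller changes than Psma3, Psmd14, Psme4, Psmd1 and Psma4, though Psmb7 was above the members' median of 0.27. Psmb7 averaged 8.12 TPM on dapagliflozin, against 6.29 TPM on vehicle (log2 change 0.35 ± 0.15, adjusted p = 0.228 by limma), and all 11 treated libraries were above the vehicle median. Psmb7 stood at 0.12 and 0.11 under the rescalings by median ratios and to protein-coding RNA. On the protein-coding scale its lowest treated library, at 65.3, was below the vehicle median of 69.9. Psmb5 averaged 9.06 TPM on dapagliflozin, against 7.43 TPM on vehicle (0.25 ± 0.16, adjusted p = 0.416), and Psmb6 averaged 16.9 TPM on dapagliflozin, against 14.9 TPM on vehicle (0.17 ± 0.15, adjusted p = 0.554). Psme3 had 0.16 ± 0.16 and Psmf1 0.12 ± 0.17, and the signs of Psmb6, Psme3 and Psmf1 turned under both rescalings and that of Psmb5 under the protein-coding one (0.029 under median ratios).

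**Figure D3:**
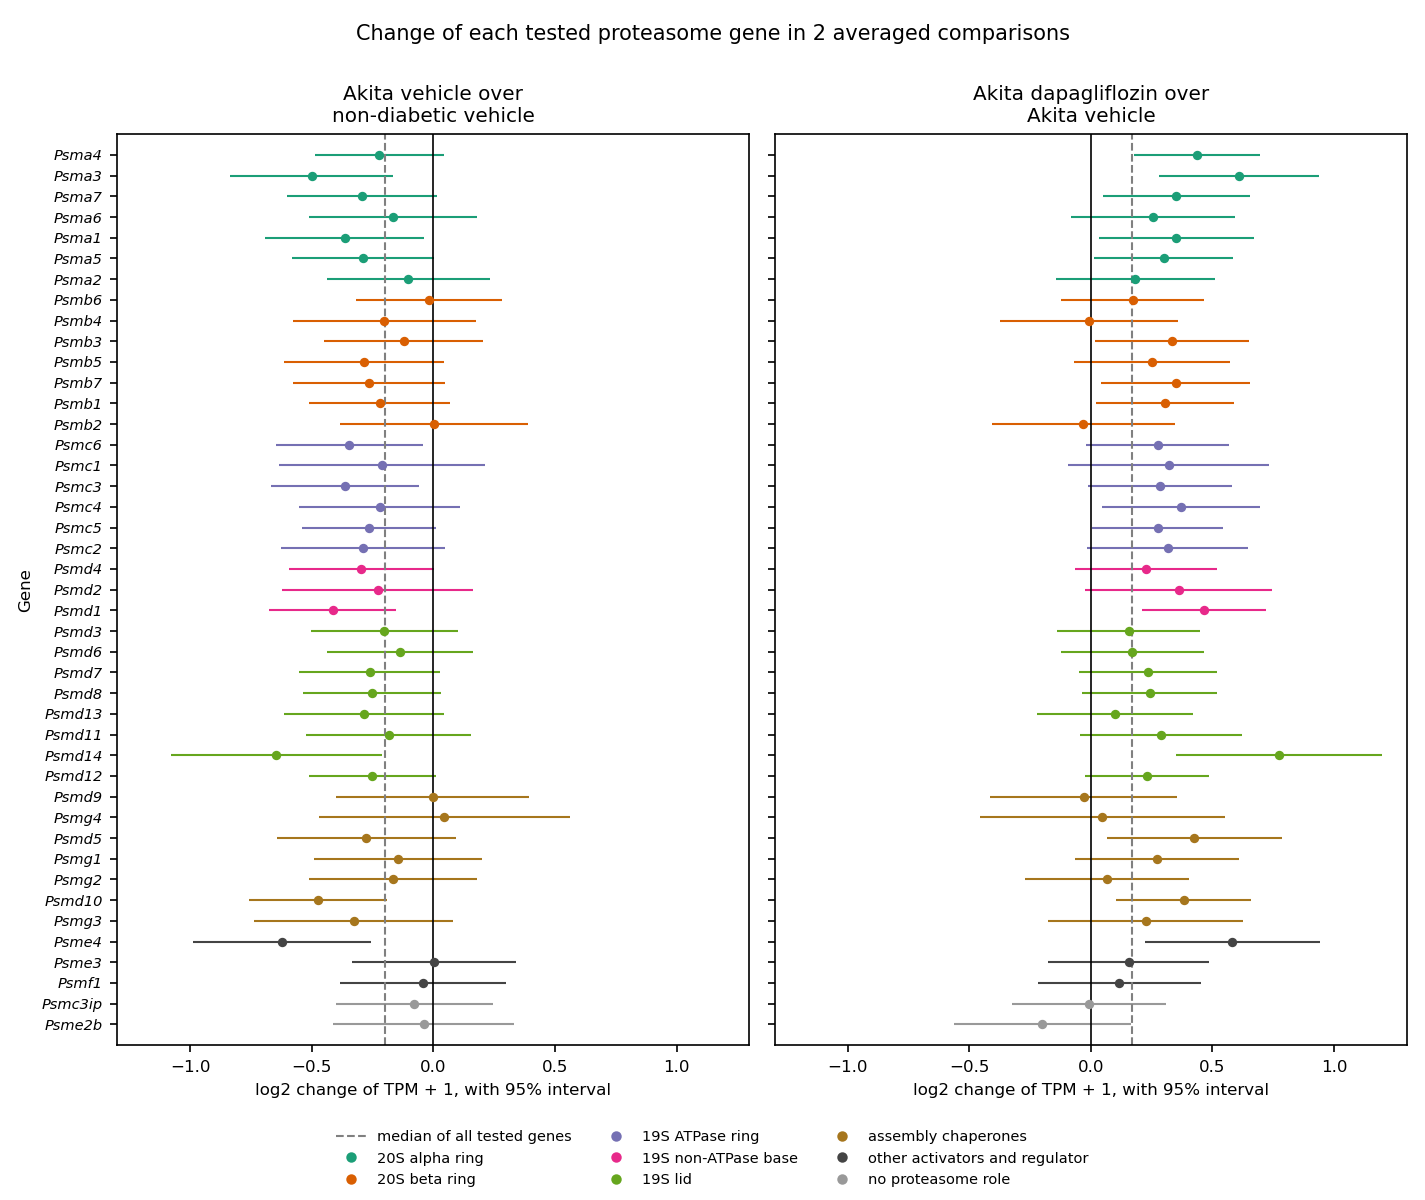
Log2 change of TPM + 1 with its 95% interval for the 43 tested members, diabetic vehicle over non-diabetic vehicle (left) and diabetic dapagliflozin over diabetic vehicle (right), averaged over genotypes; dashed lines are the medians of all tested genes, -0.20 and 0.17. Most members sit below 0 on the left and above 0 on the right, near the dashed lines, with Psmd14 at -0.65 and 0.77; after rescaling to protein-coding RNA about as many members are above 0 as below it on the left (21 and 22).

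Library by library, in TPM as deposited, the dapagliflozin groups sat above most vehicle libraries for these genes. Psmd14 was at 6.88, 10.3, 7.05, 7.68 and 5.57 TPM in diabetic wild-type tubules on dapagliflozin, against the 1.05 to 5.62 TPM of their vehicle group given above. In diabetic knockouts Psmd14 was at 6.10, 4.02, 8.40, 7.64, 13.1 and 6.78 TPM on dapagliflozin, against 2.34 to 4.25 TPM in 5 vehicle libraries and 13.9 TPM in the other. The wild-type groups overlapped by the lowest treated and the highest vehicle library, and the knockout groups overlapped through that 1 vehicle library. No member separated treated from vehicle libraries in either genotype, where 1.02% of all genes did so in wild types and 0.141% in knockouts.

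Psma3 was at 16.4, 25.02, 19.6, 23.8 and 25.3 TPM in diabetic wild-type tubules on dapagliflozin, against 21.6, 9.42, 18.5, 11.6, 15.5 and 13.7 TPM on vehicle. In diabetic knockouts Psma3 ran from 9.93 to 37.6 TPM on dapagliflozin, with a median of 19.3 TPM, against 7.69 to 18.8 TPM on vehicle, with a median of 11.3 TPM. Both pairs overlapped. Psme4 ran from 10.2 to 23.1 TPM on dapagliflozin in diabetic knockouts, against 6.13 to 18.1 TPM on vehicle, and in wild types its treated median of 18.2 TPM stood against 10.0 TPM on vehicle.

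**Figure D4:**
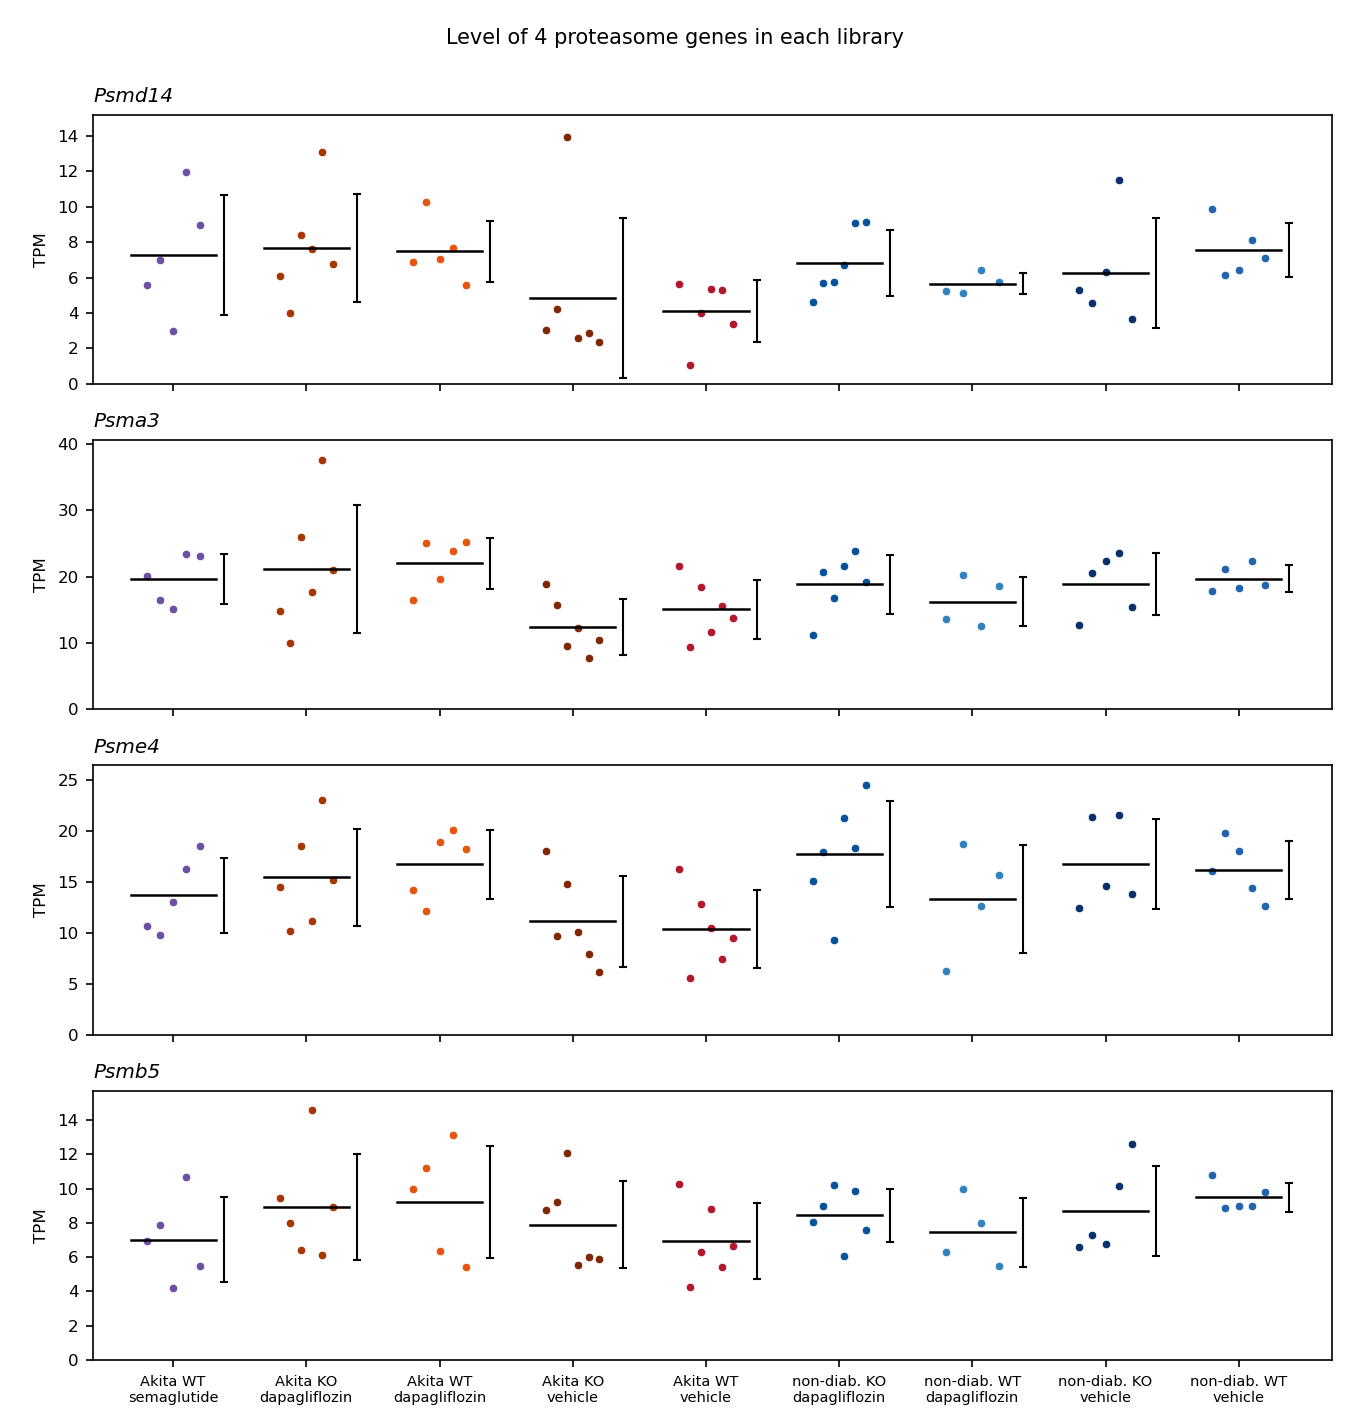
TPM of Psmd14, Psma3, Psme4 and Psmb5 in every library of the 9 groups, with mean and SD. For Psmd14 the diabetic wild-type vehicle libraries (1.05 to 5.62 TPM) lie below all non-diabetic wild-type vehicle libraries (6.17 to 9.88 TPM). After rescaling to protein-coding RNA these groups overlap. Among diabetic knockout vehicle libraries, 1 stands alone at 13.9 TPM.

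By genotype, 41 of 43 members were higher on dapagliflozin in diabetic wild types, where 77.5% of all genes were, and 7 of 43 were lower in diabetic knockouts, where 25.8% of all genes were, but 22 and 23 of 43 were lower in knockouts under the rescalings by median ratios and to protein-coding RNA. In TPM as deposited, the median log2 change was 0.32 in wild types (all genes 0.19) and 0.20 in knockouts (all genes 0.15). The 41 of 43 in wild types is also for TPM as deposited. Its counterparts under the rescalings are not given here, so these counts cannot show whether the genotypes differ on those scales. In neither genotype did limma call a member, and 0.0% of all genes passed in each. At an unadjusted p under 0.05 there were 10 members in wild types, or 23.3% against 10.1% of all genes, and 5 in knockouts, or 11.6% against 7.59%. The smallest adjusted p was 0.365 in wild types, for Psme4 (0.69 ± 0.26), and 0.643 in knockouts, for Psma3 (0.67 ± 0.23). Under median ratios these stood at 0.43 for Psme4 and 0.44 for Psma3.

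By role, the averaged dapagliflozin contrast had median log2 changes of 0.35 for the alpha ring, 0.25 for the beta ring, 0.30 for the ATPases, 0.36 for the base, 0.23 for the lid, 0.22 for the assembly chaperones and 0.16 for the activators and regulator. Of all genes, 80.8% were higher and 17.5% had an unadjusted p under 0.05. Of the alpha genes, 7 of 7 were higher and 5 of 7 had an unadjusted p under 0.05. Among the beta genes 5 were higher, 2 were lower and 3 reached that p, and among the 8 lid genes 8 were higher and 1 reached it. Rescaled to protein-coding RNA, 6 alpha genes, 3 beta genes and 2 lid genes were higher. The medians then stood at 0.10 for the alpha ring, -0.0042 for the beta ring, 0.046 for the ATPases, 0.11 for the base, -0.020 for the lid, 0.094 for the assembly chaperones and -0.11 for the activators and regulator, so those of the beta ring, the lid and the last group turned.

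Library quality differed along the same lines. The 4 libraries with under 9000 genes were all in the diabetic vehicle groups, which the diabetes and dapagliflozin contrasts share. Without them, the members' median log2 change was -0.08 for diabetes (all genes -0.04), with 15 higher and 28 lower, where 40.8% of all genes were higher, and 0.09 for dapagliflozin (all genes 0.02), with 34 higher and 9 lower, where 53.3% of all genes were higher. Members at an unadjusted p under 0.05 then numbered 2 for diabetes, or 4.65% against 4.94% of all genes, and 7 for dapagliflozin, or 16.3% against 5.38%, and limma called 0 of them. Psmd14 stood at -0.43 for diabetes and 0.55 for dapagliflozin without these libraries, Psma3 at -0.35 for diabetes and 0.46 for dapagliflozin, and Psme4 at -0.36 for diabetes and 0.32 for dapagliflozin. For semaglutide, whose vehicle group holds 2 of the 4, the members' median was then -0.012 (all genes -0.0041), with 20 higher and 23 lower.

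Markers of other kidney cells also varied between libraries, with ranges that overlapped between the pooled sets given next. Some single groups did not overlap. Late proximal tubule markers summed to 20.5 to 61.5 TPM in diabetic wild-type vehicle and 62.6 to 116 TPM in non-diabetic knockout dapagliflozin libraries. Thick limb markers summed to 10.4 to 15.4 TPM in non-diabetic wild types on dapagliflozin and 17.9 to 45.9 TPM in non-diabetic knockouts on it. The 4 late proximal tubule markers summed to a median of 65.3 TPM (range 36.0 to 105) in diabetic dapagliflozin libraries, 32.5 TPM (20.5 to 90.6) in diabetic vehicle libraries and 82.01 TPM (44.2 to 113) in non-diabetic vehicle libraries. The 3 thick limb markers summed to 6.09 to 27.3 TPM in diabetic dapagliflozin, 4.28 to 50.6 TPM in diabetic vehicle and 15.1 to 54.4 TPM in non-diabetic vehicle libraries, with 1 marker at a median of 0. For the 4 distal tubule and collecting duct markers, sums ran from 15.2 to 228 TPM (median 49.4) in diabetic dapagliflozin libraries. They ran from 5.95 to 129 TPM (median 37.2) in diabetic vehicle and 10.4 to 120 TPM (median 41.8) in non-diabetic vehicle libraries. The 5 immune markers summed to 9.45 to 57.1 TPM in diabetic dapagliflozin, 4.61 to 68.3 TPM in diabetic vehicle and 12.1 to 182 TPM in non-diabetic vehicle libraries. The 7 early tubule markers had a median sum of 1084 TPM in diabetic dapagliflozin, 1050 TPM in diabetic vehicle and 1061 TPM in non-diabetic vehicle libraries, with no marker at a median of 0. The part of these cells in the proteasome values was not tested.

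**Figure D5:**
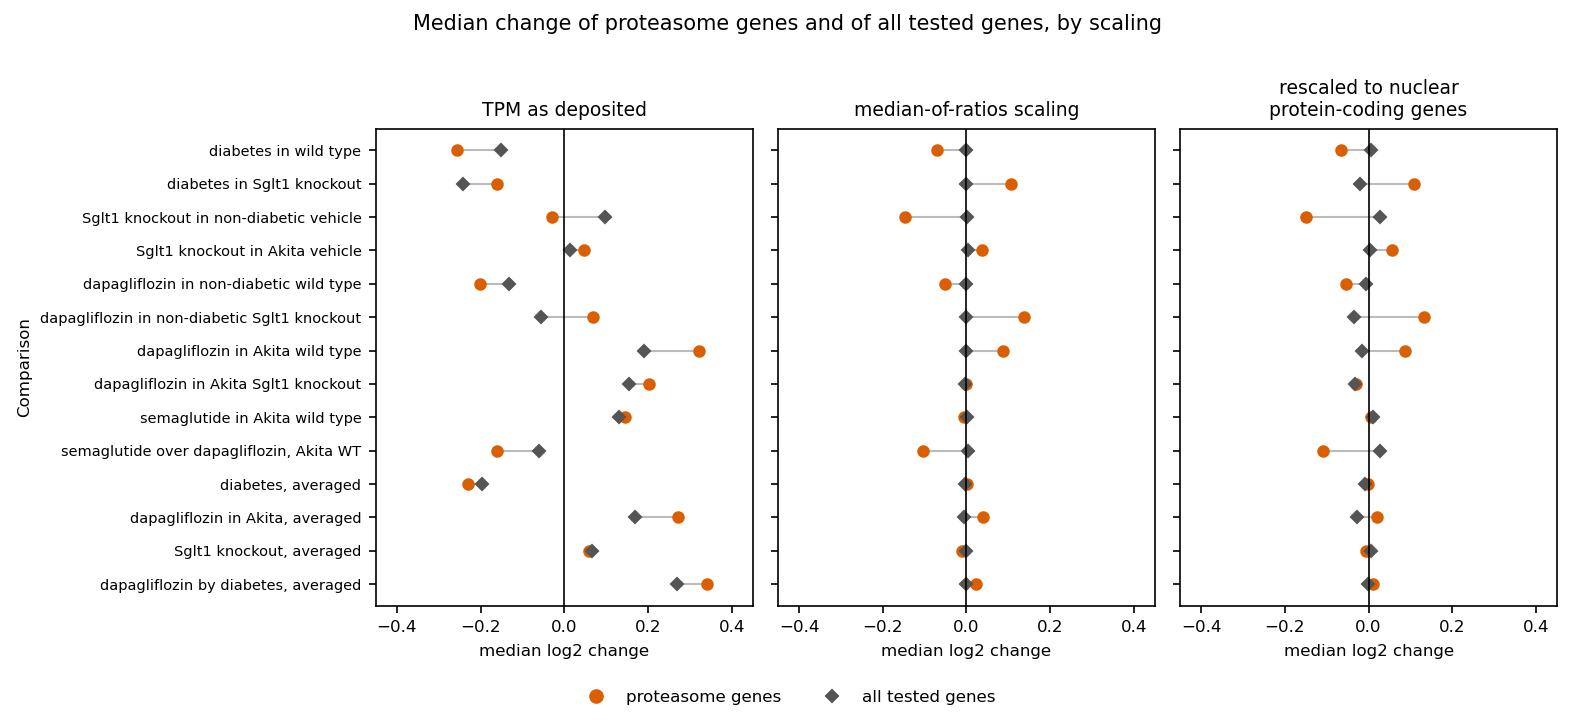
Median log2 change of the 43 tested members (orange dots) and of all 12742 tested genes (grey diamonds) in the 14 comparisons, under TPM as deposited, median-of-ratios scaling and rescaling to nuclear protein-coding RNA. For diabetes averaged over genotypes the members' median is -0.23 as deposited and 0.00 under both rescalings, and the median of all genes moves with it, at -0.20 as deposited and 0.00 and -0.01 after rescaling.

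In non-diabetic mice dapagliflozin gave mixed signs. In wild types 6 members were higher and 37 lower on dapagliflozin, where 70.7% of all genes were lower (median log2 change -0.20, all genes -0.13). In knockouts 28 members were higher and 15 lower, where 40.2% of all genes were higher (median 0.07, all genes -0.06). For wild types limma called 0 members, where 0.0% of all genes passed, with 4 members at an unadjusted p under 0.05, where 4.05% of all genes were. For knockouts it called 0, where 0.00785% of all genes passed, with 0 members at an unadjusted p under 0.05, where 3.88% of all genes were. Psmb1, a beta subunit, was furthest from 0 by p in wild types, at 4.13 TPM on dapagliflozin against 6.35 TPM on vehicle (-0.58 ± 0.23, adjusted p = 0.981).

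The difference between diabetic and non-diabetic mice in the dapagliflozin change was tested as an interaction averaged over genotypes. Its median over members was 0.34 on the log2 scale, against 0.27 over all genes, and 0.022 and 0.0099 under the rescalings. No member was called by limma, where 0.0% of all genes passed, and 12 members (27.9%) had an unadjusted p under 0.05, against 14.7% of all genes. The smallest adjusted p was 0.268, for Psmb7 (0.72 ± 0.22, but 0.38 and 0.42 under the rescalings). In wild types alone, a test added after the values were seen, limma called 0 genes (0.0%), and 11.2% of all genes had an unadjusted p under 0.05. In that genotype, in TPM as deposited, 5 members had every diabetic treated library above and every non-diabetic treated library below its own vehicle mean. Of all genes, 2.61% also showed this in one sense or the other. Psmd10, Psmd14 and Psmb7, which were among the 5, lost that split when rescaled to protein-coding RNA.

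Semaglutide was given to diabetic wild types only, and it too was set against the shared diabetic wild-type vehicle group. Of 43 members, 33 were higher and 10 lower on semaglutide, where 70.7% of all genes were higher, but 20 and 22 were higher under the rescalings by median ratios and to protein-coding RNA. The median log2 change was 0.14, against 0.13 over all genes. With semaglutide limma called 0 members, where 0.0% of all genes passed, and 3 had an unadjusted p under 0.05, where 5.82% of all genes did. No member separated the groups, which 0.4% of all genes did. Psmd14 was at 5.59, 7.0, 2.99, 11.9 and 8.94 TPM on semaglutide, a wider range than the 1.05 to 5.62 TPM on vehicle and one that overlaps it (0.69 ± 0.30, adjusted p = 0.845).

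Next were Psmd5 at 0.48 ± 0.26 and the ATPase gene Psmc6 at 0.47 ± 0.21, with 17.4 TPM on semaglutide against 12.3 TPM on vehicle and 5 of 5 treated libraries above the vehicle median. Lowest were Psmb3, a beta subunit, at -0.29 ± 0.23, Psme2b at -0.22 and the lid gene Psmd11 at -0.20. Under the rescalings by median ratios and to protein-coding RNA, Psmb3 stood at -0.46 and -0.50, Psme2b at -0.26 and -0.41 and Psmd11 at -0.37 and -0.41, while Psmc6 was at 0.29 and 0.31. Without the diabetic wild-type vehicle libraries of under 9000 genes, Psmb3 was at -0.64, Psme2b at -0.46 and Psmd11 at -0.49. The catalytic genes stood at 0.01 (Psmb5), 0.00 (Psmb6) and 0.14 (Psmb7), Psme4 at 0.40 ± 0.26, Psme3 at 0.04 and Psmf1 at -0.04.

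Semaglutide against dapagliflozin in diabetic wild types had 6 members higher and 37 lower on semaglutide, where 60.8% of all genes were lower (median log2 change -0.16, all genes -0.06). Here too limma called 0 members, where 0.0% of all genes passed, and 2 had an unadjusted p under 0.05, or 4.65%, where 2.61% of all genes did. Those 2 were also the members whose libraries did not overlap, against 0.361% of all genes. Psmd10 ran from 0.781 to 1.41 TPM on semaglutide, against 1.78 to 2.34 TPM on dapagliflozin, and Psmb3 from 4.86 to 9.47 TPM on semaglutide, against 9.63 to 12.6 TPM on dapagliflozin. Their log2 changes were -0.54 ± 0.21 for Psmd10 and -0.63 ± 0.24 for Psmb3, both with an adjusted p of 1.0 by limma.

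Between Sglt1 genotypes the members lay near 0 on the log2 scale. Averaged over the 4 matched backgrounds, 29 members were higher and 14 lower in knockouts, where 70.8% of all genes were higher, but 17 and 19 were higher under the rescalings by median ratios and to protein-coding RNA. The median log2 change was 0.06, against 0.07 over all genes, and the median member's 95% interval spanned 0.24 to each side. In this contrast limma called 0 members, where 0.0235% of all genes passed, and 1 had an unadjusted p under 0.05, where 4.91% of all genes did.

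That member was Psmd9, an ATPase assembly chaperone, with 3.19 TPM in knockout libraries against 2.25 TPM in wild-type libraries on vehicle or dapagliflozin (0.35 ± 0.14, adjusted p = 0.921). It was above the wild-type median in 16 of 23 knockout libraries. Next were the lid gene Psmd13 at 0.18 and Psmf1 at 0.17, and lowest were Psmg4 at -0.24 ± 0.19 and the beta genes Psmb3 and Psmb4 at -0.12 each. Under median ratios Psmd13 and Psmf1 stood at 0.10 each and Psmb3 and Psmb4 at -0.20 each, and Psmg4 was at -0.42 rescaled to protein-coding RNA. Knockout against wild type gave 26 members higher and 17 lower in diabetic vehicle tubules, where 46.8% of all genes were lower, and 18 higher and 25 lower in non-diabetic vehicle tubules, where 34.5% of all genes were lower. Neither contrast had a member called by limma, where 0.0157% of all genes passed in diabetic and 0.0235% in non-diabetic tubules. Members at an unadjusted p under 0.05 numbered 2 in diabetic tubules, where 1.95% of all genes were, and 0 in non-diabetic tubules, where 4.61% were.

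Of the inducible relatives of the family, the immunoproteasome genes had low TPM in these tubules and the PA28 genes had higher TPM. Psmb8, Psmb9 and Psmb10, which replace the 3 catalytic subunits after interferon, averaged 1.79, 0.60 and 0.97 TPM over 48 libraries. Their sum was 7.69% of that of Psmb5, Psmb6 and Psmb7 in the median library and ranged from 2.32% to 67.7%. With diabetes their log2 changes were -0.74 ± 0.28 for Psmb8 (adjusted p = 0.167 by limma), -0.38 for Psmb9 and -0.09 for Psmb10. The PA28 genes Psme1 and Psme2, at 7.26 and 5.20 TPM, had -0.43 (Psme1) and -0.21 (Psme2). Under median ratios Psmb8 was at -0.63, Psme1 at -0.19, and Psme2 and Psmb10 at 0.012 and 0.013, so the signs of these last genes turned. On dapagliflozin in diabetic mice the 5 genes ran from -0.12 (Psme2) to 0.25 (Psme1). In the Sglt1 contrast Psmb10 stood at 0.34 and Psmb8 at 0.23, with adjusted p = 0.921 for each.

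Of 11 tested genes for assembly and associated factors, 0 were called by limma in the diabetes, dapagliflozin, semaglutide and Sglt1 contrasts, with 1, 3, 1 and 0 at an unadjusted p under 0.05, where 18.5%, 17.5%, 5.82% and 4.91% of all genes were. Pomp, the chaperone that matures the core, averaged 4.92 TPM and had log2 changes of -0.07 ± 0.23 with diabetes and 0.15 with dapagliflozin. Adrm1, a ubiquitin receptor of the cap whose name lies outside the Psm series, averaged 21.3 TPM and had -0.19 with diabetes and 0.14 with dapagliflozin. Nfe2l1, which encodes NRF1, averaged 9.67 TPM and had -0.41 ± 0.21 with diabetes (adjusted p = 0.276), 0.17 with dapagliflozin and 0.43 ± 0.15 in Sglt1 knockouts (adjusted p = 0.921). Under both rescalings the signs of Pomp and Adrm1 turned in the diabetes and dapagliflozin contrasts and that of Nfe2l1 in the dapagliflozin contrast, and Nfe2l1 was at -0.15 and -0.17 with diabetes.

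Among the other lists limma called Vcp, Hsp90aa1 and Dnaja1. Vcp, the ATPase that pulls ubiquitin-tagged proteins out of complexes, rose on dapagliflozin in diabetic mice, to 29.7 ± 5.45 TPM (SD, n = 11), against 20.7 ± 5.95 TPM on vehicle (SD, n = 12). Its log2 change was 0.53 ± 0.14 (adjusted p = 0.0467 by limma), and it was the 1 called of 9 tested shuttle genes. Its log2 change was 0.28 and 0.27 under the rescalings (adjusted p = 0.193 and 0.187) and 0.34 without the 4 libraries of fewest genes (adjusted p = 0.838), so the call was lost in each.

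Cytosolic chaperones were lower with diabetes in 10 of 10 tested, also under both rescalings, with 2 called by limma, where 84.3% of all genes were lower and 0.557% were called. Hsp90aa1, the inducible HSP90, fell to 29.7 ± 7.93 TPM in diabetic vehicle libraries (SD, n = 12), against 51.2 ± 12.5 TPM in non-diabetic vehicle libraries (SD, n = 10; log2 change -0.77 ± 0.17, adjusted p = 0.0255). Dnaja1, an HSP40, fell to 26.4 ± 9.79 TPM in diabetic vehicle libraries, against 41.6 ± 11.5 TPM in non-diabetic vehicle libraries (-0.67 ± 0.17, adjusted p = 0.0488). Dnaja1 rose on dapagliflozin in diabetic mice, to 41.5 ± 15.2 TPM (SD, n = 11), against the 26.4 TPM on vehicle (log2 change 0.63 ± 0.17, adjusted p = 0.0467). The list's median log2 change was -0.64 with diabetes and 0.58 with dapagliflozin, against -0.20 and 0.17 over all genes. Under the rescalings the list's medians were -0.35 and -0.36 with diabetes and 0.32 and 0.30 with dapagliflozin. The calls of Hsp90aa1 and Dnaja1 were lost under both rescalings, where Hsp90aa1 was at -0.49 and -0.50 and Dnaja1 at -0.39 and -0.40 with diabetes and at 0.38 and 0.37 with dapagliflozin. They were also lost without the 4 libraries of fewest genes, where the changes themselves were -0.69 for Hsp90aa1 and -0.55 for Dnaja1 with diabetes and 0.52 for Dnaja1 with dapagliflozin.

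The remaining lists had medians close to that of all genes. Ubiquitin genes and E1 enzymes had medians of -0.29 with diabetes and 0.23 with dapagliflozin over 6 genes. The 7 tested regulators of proteasome transcription had -0.24 with diabetes and 0.17 with dapagliflozin, and 10 cytosolic ribosomal protein genes had -0.20 with diabetes and 0.24 with dapagliflozin. Under median ratios the ribosomal genes stood at 0.076 with diabetes and the 3 lists at -0.011 to -0.053 with dapagliflozin, so those signs turned. Limma called 0 genes of these 3 lists in either contrast. At an unadjusted p under 0.05 they had 3, 1 and 0 genes with diabetes, where 18.5% of all genes were, and 2, 0 and 2 with dapagliflozin, where 17.5% were.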

How the data were processed

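The authors deposited 1 table of TPM per gene, with 48 columns for 54 labelled samples; 6 samples were not analysed here. The table's name says outliers were left out; how they were chosen is not stated in the labels. Per the labels' protocols, libraries were made with the SMARTer Stranded Total RNA-seq Pico v3 kit from 0.5 ng of RNA with DV200 above 30%. Salmon, MultiQC 1.8 and GRCm38 are named per the submitters' processing notes. The table holds no counts, so sequencing depth is unknown.

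Log2(TPM + 1) of genes that reached 1 TPM in 5 or more samples was fitted with limma 3.58.1 (trend and robust, statmod 1.5.0, R 4.3.3), with 9 group means, 39 residual degrees of freedom and Benjamini-Hochberg adjustment over all 12742 genes in each of 14 comparisons; this understates changes of low genes. The fit was tested on simulated data. Transcripts were compared with blastn 2.17.0 (identity of at least 95% over at least 200 bases). Alternatives were the pseudocount, the filter, the scaling, limma without trend and robust, covariates and leaving out libraries.

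The rule for named genes took any member with an adjusted p under 0.05 (there was none), the 3 highest and 3 lowest changes in 4 main comparisons and in mean TPM, catalytic subunits, Psmd14, the activators, Psmf1, untested members, called genes of the other lists and 8 relatives. Psmd1, Psma4, Psmb1, Psmd5, Psmd6 and Psmd10, where the rule did not take them, were named after their values were seen, as were the lowest p within genotypes and groups that did not overlap. In the rescaling to protein-coding RNA the values are larger, so the added 1 weighs less. Counts of members under the rescalings are printed without the share of all genes, and so cannot be set against it. The members and lists were chosen with earlier results of these data known.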

Additional observations from a re-analysis of the deposited data

Results flagged for a closer look

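A check of 18 measures in 162 groups looked for a library far from the rest. Chance alone picks out about 1 group in 20 in this way, or 8.1 of them. Together with a separate rule run on all members, whose results are in the next paragraph, 13 results were picked out. A single library stood far from the others of its group in 8 cases. Psmd14 was at 13.9 TPM in 1 diabetic knockout vehicle library, where the next was at 4.25 TPM. Psmd10 was at 3.01 TPM in 1 non-diabetic wild-type vehicle library, next to 1.76 TPM. Psmd9 was at 4.62 TPM in 1 diabetic wild-type dapagliflozin library, next to 2.40 TPM, and at 5.16 TPM in 1 non-diabetic knockout vehicle library, next to 2.92 TPM. Psma4 reached 49.1 TPM in 1 diabetic knockout dapagliflozin library, next to 30.5 TPM, and Psme3 reached 11.6 TPM in 1 non-diabetic knockout vehicle library, next to 6.92 TPM. The family's share of nuclear protein-coding TPM was 0.425% in 1 diabetic knockout vehicle library, next to 0.385%, and 0.340% in 1 diabetic semaglutide library, next to 0.382%.

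In wild types, 5 members went opposite ways on dapagliflozin. In TPM as deposited, every diabetic treated library lay above the diabetic vehicle mean and every non-diabetic treated library below the non-diabetic vehicle mean. Of all 12742 genes, 333 (2.61%) were split in this way or in the opposite way. The same rule picked out no member for dapagliflozin in knockouts, or for diabetes in wild types against knockouts. Rescaled to protein-coding RNA, Psmd14, Psmb7 and Psmd10 lost the split. Their highest non-diabetic treated libraries stood at 88.9, 81.6 and 25.5, above the non-diabetic vehicle means of 77.3, 77.8 and 19.5. Psmb1 and Psmd6 were not checked on that scale. Psmd10 averaged 2.07 TPM on dapagliflozin and 1.35 TPM on vehicle in diabetic mice, and 1.58 TPM on dapagliflozin and 1.92 TPM on vehicle in non-diabetic mice. Psmb1 averaged 6.38 TPM on dapagliflozin and 5.33 TPM on vehicle in diabetic mice, and 4.13 TPM on dapagliflozin and 6.35 TPM on vehicle in non-diabetic mice. Psmd14 averaged 7.49 TPM on dapagliflozin and 4.12 TPM on vehicle in diabetic mice, and 5.64 TPM on dapagliflozin and 7.55 TPM on vehicle in non-diabetic mice. Psmb7 averaged 8.23 TPM on dapagliflozin and 6.40 TPM on vehicle in diabetic mice, and 4.70 TPM on dapagliflozin and 7.75 TPM on vehicle in non-diabetic mice. Psmd6, a lid gene, averaged 16.6 TPM on dapagliflozin and 13.2 TPM on vehicle in diabetic mice, and 13.1 TPM on dapagliflozin and 14.95 TPM on vehicle in non-diabetic mice. The interaction in wild types alone, a test chosen after seeing the data, called 0 genes by limma (0.0% of all genes), with 1423 at an unadjusted p under 0.05, and gave these 5 members adjusted p-values from 0.324 to 0.520.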

How the results depend on the processing

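The number of members called by limma stayed at 0 in all but 15 of 379 settings. In the averaged dapagliflozin contrast it was 1 with a pseudocount of 0.1 (Psmd14, adjusted p = 0.0494), 3 with a filter of TPM of at least 5 (Psma3 0.0333, Psmd1 0.0403, Psmd14 0.0325), 1 without trend and robust (Psmd1, 0.0488) and 0 to 6 when each library was left out in turn, with 6 without diabetic wild-type vehicle sample 1. In the averaged diabetes contrast it was 0 to 4 over libraries left out, with 4 without diabetic knockout vehicle sample 3. Calls among all genes in these settings are not given here, so the counts of members cannot be set against them. Medians of members moved by more than the pooled SD between libraries of a group, 0.26, in 4 settings. Diabetes in knockouts was 0.11 under median-of-ratios scaling and 0.11 rescaled to nuclear protein-coding genes, and the interaction was 0.022 and 0.0099. A median below 0.26 in size can fall to nearly nothing without being counted. That of the averaged diabetes contrast, -0.23 as deposited, did so under both rescalings. The sign turned in 70 of 1393 settings of named changes. For diabetes these were Psmb2 at -0.019 (pseudocount 0.1), Psmb6 at 0.25 (median of ratios), 0.27 (protein-coding), 0.041 (capture number), 0.13 (genes detected) and 0.073 (without libraries of fewer than 9000 genes), and Psmf1 at 0.16, 0.23, 0.13 (genes detected) and 0.049 (without those libraries). For dapagliflozin they were Psmb5 at -0.0042 (protein-coding), Psmb6 at -0.076 and -0.10, Psme3 at -0.077 and -0.11, and Psmf1 at -0.066, -0.11 and -0.00983 (genes detected). Over libraries left out, diabetes changes ran from -0.12 to 0.12 for Psmb2, -0.077 to 0.031 for Psmb6, -0.056 to 0.081 for Psme3, -0.12 to 0.049 for Psmf1 and -0.052 to 0.23 for Psmg4, and dapagliflozin changes from -0.15 to 0.050 for Psmb2 and -0.12 to 0.054 for Psmd9. The cause was not tested. The calls of Hsp90aa1 and Dnaja1 with diabetes held in 15 and 7 of 22 fits that left out 1 library, and those of Dnaja1 and Vcp with dapagliflozin in 9 and 8 of 23. No paired analysis was possible because the labels give no replicate numbers. TPM keeps no depth, so the precision of low members such as Psmg3 and Psmd10 is not known from the table.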
